A study of Mus musculus with 88 samples.

Results

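Corticosterone, the main stress glucocorticoid of the mouse, acts in the brain through the glucocorticoid receptor Nr3c1 and the mineralocorticoid receptor Nr3c2, and 10 genes of this system were followed here. They are both receptors, the enzyme gene Hsd11b1, and 7 genes that the glucocorticoid receptor is known to induce: Fkbp5, Sgk1, Tsc22d3, Pdk4, Plin4, Hif3a and Zbtb16. The members were fixed by symbol and found by their Ensembl identifiers in each of the 3 brain regions of the study. All 10 were present among the 18946 genes tested in the medial prefrontal cortex (mPFC), the 17515 tested in the bed nucleus of the stria terminalis (BNST) and the 19559 tested in the ventral hippocampus (vHPC).

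The study used chronic social defeat stress (CSDS), in which a male mouse is defeated daily by an aggressive CD1 resident, in 2 inbred strains labelled C57BL/6Crl (B6) and DBA/2Crl (D2), which are C57BL/6NCrl and DBA/2NCrl in the methods of the study. Defeated mice were classed as resilient or susceptible by a social interaction ratio set against undefeated controls of the same strain, and RNA was taken 6 to 8 days after the last defeat. All mice were 8-week-old males, the labels name no transgene or drug, and 88 ribosomal RNA-depleted libraries were sequenced. The mPFC had 6 control, 6 resilient and 6 susceptible B6 mice with 6 control and 8 susceptible D2 mice. The BNST had 5 mice of each B6 group with 5 control, 3 resilient and 5 susceptible D2 mice, and the vHPC had 6 control, 8 resilient and 3 susceptible B6 mice with 6 control and 5 susceptible D2 mice. Each library is 1 mouse, and 7 mice are present in both the mPFC and the vHPC.

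Without hormone, both receptors are held in the cytoplasm by HSP90 and its partners. With hormone they move to the nucleus, where they bind short palindromic DNA elements. The mineralocorticoid receptor binds corticosterone more tightly, is richest in the hippocampus and is occupied at low hormone levels, whereas the glucocorticoid receptor fills during stress and at the daily peak. Hsd11b1 encodes the enzyme that regenerates active corticosterone from its inert keto form inside cells. Fkbp5 encodes an HSP90 co-chaperone that lowers the hormone affinity of the glucocorticoid receptor and is itself induced by it, a short negative feedback loop. Sgk1 encodes a kinase of ion transport and cell survival, Tsc22d3 the anti-inflammatory protein GILZ, Pdk4 a kinase that restrains pyruvate dehydrogenase, Plin4 a lipid droplet coat protein, Hif3a a member of the hypoxia-inducible factor family, and Zbtb16 the zinc finger repressor PLZF.

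Among the 8 members searched, the best match to the receptor's palindromic element lay in front of Sgk1, which also had the most windows. RefSeq promoter windows of 300 bases, from 250 bases before to 50 after a transcription start (build GRCm38.p6), were read for 8 of the 10 members, in 15 windows. Nr3c1 and Zbtb16 were not searched. The element searched was AGAACA on either strand, so TGTTCT counted as well, and it was present in 19% of all 32851 promoter windows. The full palindrome, AGAACA then any 3 bases then TGTTCT, was present in 3 of these windows, 0.00913%. One of these belonged to Sgk1 (chr10:21993640-21993939, plus strand) and is shown because it carried both parts of the palindrome, at bases 62 to 67 and 71 to 76, and another copy of the element at bases 9 to 14. The window of Tsc22d3 (chrX:140600473-140600772, minus strand) is shown beside it because it held a single element, at bases 66 to 71. Capitals mark the element, and both are written 5′ to 3′ on the strand of the gene.
Sgk1: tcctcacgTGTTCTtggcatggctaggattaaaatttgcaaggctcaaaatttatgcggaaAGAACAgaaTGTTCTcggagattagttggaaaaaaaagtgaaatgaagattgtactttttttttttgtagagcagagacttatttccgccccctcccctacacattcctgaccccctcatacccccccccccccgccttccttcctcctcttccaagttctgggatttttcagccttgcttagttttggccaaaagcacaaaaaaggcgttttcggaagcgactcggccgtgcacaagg
Tsc22d3: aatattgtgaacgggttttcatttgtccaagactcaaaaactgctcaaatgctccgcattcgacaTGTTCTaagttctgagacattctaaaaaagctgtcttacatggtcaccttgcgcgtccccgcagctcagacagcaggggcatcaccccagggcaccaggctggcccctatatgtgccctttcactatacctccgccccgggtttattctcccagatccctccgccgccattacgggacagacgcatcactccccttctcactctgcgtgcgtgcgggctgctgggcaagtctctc
Sgk1 had a single element in 2 of its other 5 windows, at bases 56 to 61 of chr10:21881934-21882233 and 238 to 243 of chr10:21991973-21992272. The windows of Nr3c2, Fkbp5, Hsd11b1, Pdk4, Plin4 and Hif3a, and the other 2 of Tsc22d3, did not hold these letters. A match is a description of the sequence and was not tested as a binding site.

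Some features of the tables bear on every value below. The mPFC and vHPC values are log2 CPM, reads scaled to the size of the library, that the authors had adjusted for library sets before deposit, whereas the BNST values were computed from deposited counts of 11825757 to 25793910 reads per mouse, so levels in different regions are set side by side without a test. Another feature is the position of each library between the strains. It was measured with 149 genes that had a log2 fold change above 1 in size between D2 and B6 controls, with 1 direction, in both the mPFC and the BNST. In the vHPC 147 of them were used. Position 0 is the mean of B6 controls and position 1 that of D2 controls, and a library's position is the median over the genes. In the mPFC every B6 library lay between -0.05 and 0.08 and every D2 library between 0.93 and 1.06, and in the BNST the ranges were -0.02 to 0.05 and 0.90 to 1.04.

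Markers of the tissues did not separate all regions in B6 controls. The summed level of 8 hippocampal markers was 1300 to 1460 CPM in the vHPC and 979 to 1360 in the BNST. In the mPFC 7 of them were tested and summed to 648 to 748. The 8 extended amygdala markers summed to 1160 to 1510 CPM in the BNST, and the 6 of them tested in the mPFC to 406 to 630. Cortical neuron markers summed to 539 to 733 CPM in the mPFC, less than the 789 to 828 in the vHPC, and to 150 to 312 in the BNST. The BNST libraries also held 2900 to 6280 CPM of striatal markers, against 271 to 653 in the mPFC.

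Defeated groups of the vHPC were displaced. B6 controls lay between -0.02 and 0.01, resilient B6 mice between 0.29 and 0.36, susceptible B6 mice between 0.43 and 0.51, D2 controls between 0.95 and 1.08 and susceptible D2 mice between 1.16 and 1.28. Of the mice measured in both regions, 2 resilient B6 mice lay at 0.31 and 0.30 in the vHPC and at 0.03 and 0.02 in the mPFC, and 2 susceptible D2 mice at 1.24 and 1.16 against 0.93 and 1.03. Group means that ran in 1 unbroken order, from B6 control through resilient and susceptible B6 to control and susceptible D2, were found for 35% of all vHPC genes and for 7.48% of mPFC genes. In the vHPC table the effect of defeat and this displacement therefore cannot be told apart, and vHPC members called in defeated against control B6 mice are given below with their value after the displacement was subtracted, a step that was not applied to D2 mice.

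**Figure D1:**
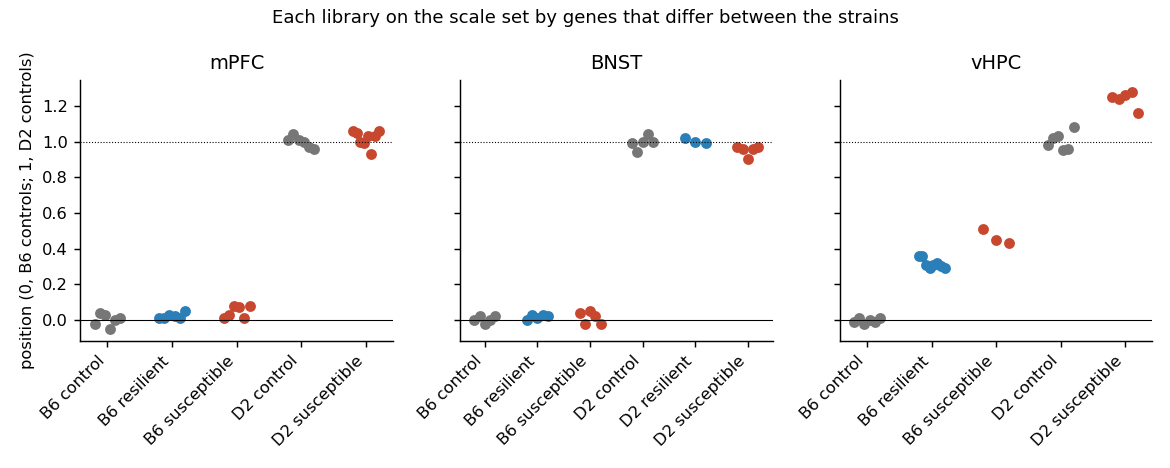
Position of each library between B6 controls (0) and D2 controls (1), one point per mouse, by region and group, as the median over 149 strain-dependent genes (147 in the vHPC). B6 and D2 libraries sit near 0 and near 1 in the mPFC and BNST, while resilient and susceptible B6 vHPC libraries sit at 0.29 to 0.36 and 0.43 to 0.51 and susceptible D2 vHPC libraries at 1.16 to 1.28.

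The receptors ranked differently in the 3 regions. To compare genes, levels were divided by the length of the exons and are given as log2 CPM per kilobase in B6 controls (mean ± SD). In the mPFC Nr3c1 was the highest member at 4.84 ± 0.08 (n = 6), above Zbtb16 at 3.66 ± 0.22 and Nr3c2 at 3.6 ± 0.12, which did not differ from each other beyond their spread. In the vHPC Nr3c2 was the highest at 5.18 ± 0.08 (n = 6), above Nr3c1 at 4.39 ± 0.10. In the BNST the top of the order was shared by Sgk1 at 3.87 ± 0.13, Nr3c2 at 3.84 ± 0.14 and Nr3c1 at 3.58 ± 0.25 (n = 5), which overlapped.

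Below the receptors, Tsc22d3 and Sgk1 were close to each other in mPFC (3.39 ± 0.13 and 3.27 ± 0.15) and vHPC (4.27 ± 0.13 and 4.09 ± 0.18). Fkbp5 was lower at -0.15 ± 0.16 (mPFC), 1.37 ± 0.23 (BNST) and 1.15 ± 0.14 (vHPC). Pdk4 lay at 1.83 ± 0.18, 0.82 ± 0.13 and 1.2 ± 0.21 in the same regions. The lowest members were Hif3a (-2.25 ± 0.46) and Plin4 (-2.31 ± 0.49) in the mPFC, Plin4 (-1.85 ± 0.99) and Hsd11b1 (-1.26 ± 1.1) in the BNST, and Hif3a (-1.18 ± 0.40) in the vHPC. Hsd11b1 and Plin4 stood higher in the order of the vHPC, at 2.87 ± 0.09 and 1.84 ± 0.13. D2 controls gave the same member at the top in the mPFC (Nr3c1, 4.88 ± 0.12) and the vHPC (Nr3c2, 5.01 ± 0.06).

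**Figure D2:**
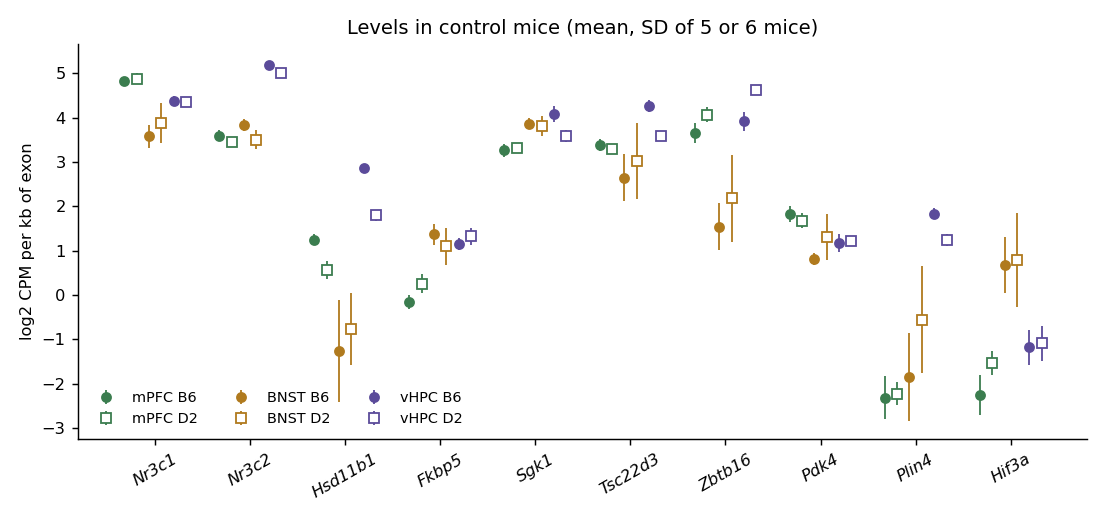
Level of each member in undefeated controls, in log2 CPM per kilobase of exon, by region and strain, with points for the mean and bars for the SD over 5 or 6 mice. Nr3c1 is the highest member in the mPFC and Nr3c2 in the vHPC, in both strains.

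From 6 to 8 days after defeat, few members differed from controls where the libraries kept their strain position. In the mPFC, 1 of 10 members was called in susceptible B6 mice, against 2.22% of all genes tested. None was called in resilient B6 mice or in susceptible D2 mice, where 0% of genes were called in both comparisons, nor between susceptible and resilient B6 mice, where 2.02% were. At an unadjusted p under 0.05 these 4 comparisons held 3, 1, 2 and 5 members. A call is a Benjamini-Hochberg adjusted p under 0.05 over all genes, from limma in the mPFC and vHPC and from edgeR's quasi-likelihood test in the BNST.

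In the BNST no member was called in any comparison of defeated with control mice, or of susceptible with resilient mice, by edgeR or by DESeq2. The background was 0% in each of these, except 0.00571% between susceptible and resilient B6 mice. At an unadjusted p under 0.05 edgeR gave 4 members in resilient against control D2 mice, 4 in susceptible against resilient D2 mice and none in the other 4 of these BNST comparisons. The vHPC counts were 1 of 10 in resilient B6 mice (10.84% of all genes), 6 of 10 in susceptible B6 mice (40.64%), none in susceptible D2 mice (4.28%; 2 at an unadjusted p under 0.05), and 3 of 10 between susceptible and resilient B6 mice (27.63%). With the displacement subtracted, limma called 0 of 19559 genes in each of the 3 vHPC comparisons of B6 mice. At an unadjusted p under 0.05 it then gave 67 genes in resilient against control mice, 2631 in susceptible against control mice and 5617 between susceptible and resilient mice.

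Between the control mice of the strains, 4 of 10 members were called in the mPFC (27.79% of all genes), none in the BNST (2.51%) and 6 in the vHPC (59.32%). At an unadjusted p under 0.05 edgeR gave 4 in the BNST, and DESeq2 also called none there. The members' strain by susceptible interaction, which asks whether the change in susceptible mice differed between the strains, was not called for any member in the mPFC (0% of all genes), the BNST (0%) or the vHPC (0.782%). The strain by resilient interaction, fitted in the BNST, was also called for none (0% of all genes). At an unadjusted p under 0.05 these interactions held 2, 0, 3 and 3 members.

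**Figure D3:**
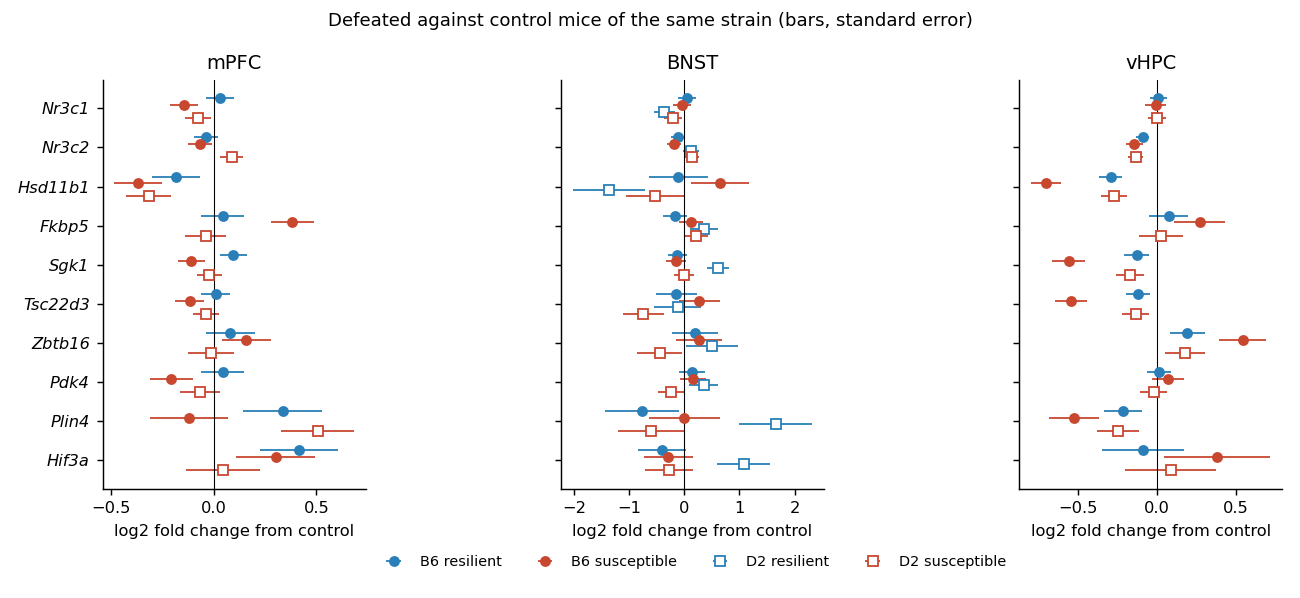
Log2 fold change of each member in defeated against control mice of the same strain, in 3 panels by region with separate horizontal scales, with bars for the standard error. Filled circles are B6 and open squares D2 mice, blue resilient and red susceptible. In the mPFC Fkbp5 of susceptible B6 mice lies at 0.38, and in the vHPC Hsd11b1, Sgk1, Tsc22d3 and Plin4 of susceptible B6 mice lie at -0.71, -0.56, -0.55 and -0.53 and Zbtb16 at 0.54.

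Nr3c1, on chromosome 18, was level across the groups of the vHPC. Its mean was 7.33 ± 0.10 log2 CPM in B6 controls (n = 6), 7.34 ± 0.11 in resilient (n = 8) and 7.32 ± 0.08 in susceptible B6 mice (n = 3), and 7.29 in both D2 groups. The difference between susceptible and control B6 mice was -0.01, with a 95% interval of -0.14 to 0.12. In the mPFC the 6 B6 controls read 7.76, 7.79, 7.66, 7.83, 7.78 and 7.90, and the 6 susceptible B6 mice 7.78, 7.61, 7.71, 7.34, 7.76 and 7.65. The groups overlapped, and the difference of -0.15 was not called (limma adjusted p = 0.255). In the BNST D2 controls read 6.31, 7.36, 6.84, 6.46 and 7.20 against 6.63, 6.53, 6.58, 6.09 and 6.76 in B6 controls. That difference of 0.35 was not called either (edgeR adjusted p = 0.343).

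Nr3c2 (chromosome 8, bases 76899442 to 77245012) had lower means in D2 than in B6 controls in every region, and was called in the vHPC. The differences in log2 CPM were -0.15 in the mPFC (limma adjusted p = 0.0617), -0.33 in the BNST (edgeR adjusted p = 0.228) and -0.17 in the vHPC (limma adjusted p = 0.00213). In the vHPC the 6 B6 controls read 7.83, 7.95, 7.85, 7.98, 7.77 and 7.87, all above the 6 D2 controls at 7.71, 7.77, 7.76, 7.65, 7.62 and 7.73, as for 36.7% of all genes whose groups did not overlap, although the closest pair both round to 7.77. Within the vHPC it was lower in susceptible than in control B6 mice by 0.15 (limma adjusted p = 0.036), and the 3 susceptible mice read 7.74, 7.78 and 7.66. The highest susceptible mouse passed the lowest control, and with the displacement subtracted the difference was -0.07 (limma adjusted p = 0.598). The call was also lost with the library set as a covariate (limma adjusted p = 0.657), with the sequencing set as a covariate (0.076), in sequencing set 1 alone (0.0577) and with only the compared groups in the fit (0.0833). The 5 susceptible D2 mice read 7.57, 7.56, 7.60, 7.56 and 7.56, below all 6 D2 controls (4.98% of all genes did not overlap), but this was not called (limma adjusted p = 0.108). In the mPFC the difference in susceptible B6 mice was -0.07, with a 95% interval of -0.18 to 0.05.

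Hsd11b1 (chromosome 1, bases 193221634 to 193264075) gave the largest strain difference by absolute log2 fold change among the called members of the vHPC, and the second largest in the mPFC. In the mPFC the 6 B6 controls read 3.16, 3.48, 3.45, 3.4, 3.23 and 3.3 log2 CPM and the 6 D2 controls 2.55, 2.46, 2.84, 2.44, 2.96 and 2.73. No D2 control reached the lowest B6 control, as for 11.7% of all genes in this comparison whose groups did not overlap. Hsd11b1 was 1.6-fold lower in D2 controls, a log2 difference of -0.68 ± 0.12 (SE, limma adjusted p = 4.76e-05). Within the 4 library sets that held controls of both strains the difference was -0.56, -1.02, -0.91 and -0.63. In the vHPC it was 2.1-fold lower in D2 controls, at 3.89 ± 0.12 against 4.96 ± 0.09 (limma adjusted p = 1.28e-11).

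In the BNST Hsd11b1 was near 1 CPM, and neither direction nor size was resolved. B6 controls read 0.37, 1.23, 1.139, -0.84 and 2.229, and D2 controls 0.53, 0.90, 1.38, 1.179 and 2.66. The D2 minus B6 difference was 0.40, with a 95% interval of -0.64 to 1.44.

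After defeat Hsd11b1 had lower means in every mPFC group, without a call. The mPFC means ran 3.34 in control, 3.2 in resilient and 2.97 in susceptible B6 mice, then 2.66 in control and 2.34 in susceptible D2 mice. The 6 susceptible B6 mice read 3.08, 3.08, 3.16, 2.6, 2.91 and 2.99, a difference of -0.37 from controls (limma adjusted p = 0.0829), and 8 susceptible D2 mice ranged from 1.97 to 2.61, a difference of -0.32 (limma adjusted p = 0.985). Their unadjusted p values were 0.00369 and 0.00684. Within the 4 library sets that held both B6 groups the difference was -0.81, -0.58, -0.37 and -0.19, and within the 4 sets that held both D2 groups it was -0.79, -0.05, -0.33 and -0.03. These sets had 1 to 3 mice a group.

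In the vHPC Hsd11b1 was the only member called in both defeated B6 groups. The 8 resilient mice had a lowest value of 4.38, a median of 4.71 and a highest value of 4.91, and the 3 susceptible mice read 4.33, 4.14 and 4.3, against 5.05, 4.82, 5.04, 5.01, 4.95 and 4.91 in controls. It was 1.23-fold lower in resilient mice (limma adjusted p = 0.00895) and 1.63-fold lower in susceptible mice (limma adjusted p = 5.23e-06). With the displacement subtracted the log2 differences were 0.05 and -0.21 (limma adjusted p = 1 and 0.382), so the first changed its sign. Susceptible D2 mice read 3.49, 3.68, 3.72, 3.47 and 3.72, below the 6 D2 controls, which ranged from 3.76 to 4.07 (4.98% of all genes did not overlap), and that difference of -0.28 was not called (limma adjusted p = 0.0593).

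**Figure D4:**
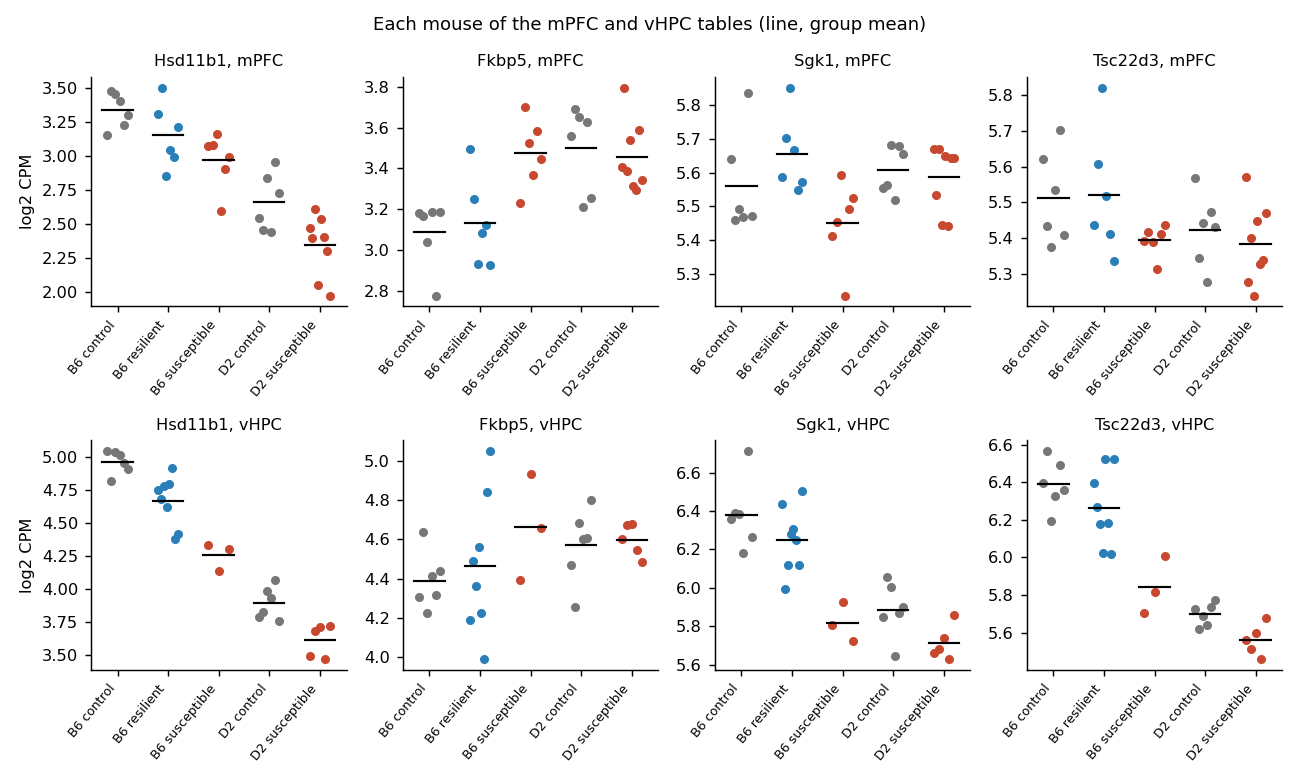
Log2 CPM of Hsd11b1, Fkbp5, Sgk1 and Tsc22d3 in single mice of the mPFC (top) and vHPC (bottom), by group, with one point per mouse and a line at the group mean. Hsd11b1 means step down from B6 control to D2 susceptible mice in both regions, and mPFC Fkbp5 of the 6 susceptible B6 mice (3.23 to 3.70) lies above that of the 6 B6 controls (2.78 to 3.19).

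Fkbp5 (chromosome 17, bases 28399094 to 28517527) was the only member called after defeat in the mPFC. The 6 B6 controls read 3.18, 3.17, 3.04, 3.19, 2.78 and 3.19 log2 CPM, and the 6 susceptible B6 mice 3.23, 3.70, 3.53, 3.37, 3.58 and 3.44. The groups did not overlap, as for 1.47% of all genes, and Fkbp5 was 1.3-fold higher in susceptible mice, a log2 difference of 0.38 ± 0.11 (SE, limma adjusted p = 0.049). The call was held at the border of the threshold: it was lost in 4 of 7 other settings and in 9 of 12 fits that left out 1 mouse, while the difference stayed between 0.32 and 0.43 in all of these. Its adjusted p ran from 0.04 to 0.635 over the other settings and from 0.0291 to 0.124 over the fits without 1 mouse. Within library sets 1 to 4 the difference was 0.18, 0.42, 0.44 and 0.48, with 1 or 2 mice a group. All susceptible B6 mice of the mPFC but 1 carried the identifier prefix C7, against 1 of the 6 controls and no resilient mouse. With the prefix as a covariate the difference was 0.345 (limma adjusted p = 0.635). Susceptibility and prefix can therefore hardly be told apart in any mPFC comparison of susceptible B6 mice.

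Resilient B6 mice did not share this level in the mPFC, with 3.49, 3.25, 2.93, 3.09, 3.125 and 2.93 and a mean of 3.14 ± 0.21. The difference between susceptible and resilient mice was 0.34 (limma adjusted p = 0.0747). D2 controls read 3.56, 3.69, 3.65, 3.21, 3.63 and 3.26, of which 5 lay within the range of susceptible B6 mice and the lowest just under it. They were 1.33-fold higher than B6 controls (limma adjusted p = 0.00411), and no D2 control lay below a B6 control (11.7% of all genes did not overlap). Susceptible D2 mice had a mean of 3.46 ± 0.17 (n = 8) against 3.5 ± 0.21 in their controls. The interaction of strain and susceptibility was -0.42 with an unadjusted p of 0.00633 and was not called (limma adjusted p = 0.441).

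Outside the mPFC Fkbp5 was called in no comparison. In the BNST the difference between susceptible and control B6 mice was 0.12 (95% interval -0.31 to 0.54), and 1 of the 5 susceptible mice, at 5.53, stood above the other 4 at 4.06 to 4.65. In the vHPC it was 0.27 (95% interval -0.05 to 0.59), with 4.39, 4.93 and 4.66 in the susceptible mice against 4.23 to 4.64 in controls.

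Zbtb16 (chromosome 9, bases 48654297 to 48836222) was higher in D2 than in B6 controls in the 2 cortical and hippocampal tables. In the mPFC the D2 controls read 6.66, 6.385, 6.64, 6.24, 6.55 and 6.36 and the B6 controls 6.12, 6.07, 6.02, 6.23, 5.64 and 6.26, which overlap by 1 mouse of each group. It was 1.33-fold higher in D2 controls (limma adjusted p = 0.00933). In the vHPC the log2 difference was 0.71 (limma adjusted p = 1.63e-05), with 6.90 to 7.24 in D2 controls and 6.08 to 6.59 in B6 controls (36.7% of all genes did not overlap). Susceptible B6 mice of the vHPC read 6.68, 7.02 and 6.88, 1.46-fold above controls (limma adjusted p = 0.00507), a log2 difference of 0.54 that was 0.21 with the displacement subtracted (limma adjusted p = 0.532). In the mPFC the same contrast gave 0.16 (95% interval -0.08 to 0.39).

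Sgk1 (chromosome 10, bases 21882184 to 21999903), whose promoter carried the full palindrome, moved by little in the mPFC. Means of the 5 mPFC groups spanned 5.45 to 5.66 log2 CPM. The widest gap was between susceptible and resilient B6 mice, at 5.41, 5.45, 5.59, 5.23, 5.49 and 5.52 against 5.59, 5.7, 5.85, 5.67, 5.55 and 5.57. That difference of -0.20 was not called (limma adjusted p = 0.0876). Tsc22d3 (chromosome X, bases 140539528 to 140600659), with a single element, spanned 5.38 to 5.52 in the mPFC and was called in no comparison there.

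In the vHPC both genes were lower in susceptible B6 mice. The 3 susceptible mice read 5.81, 5.93 and 5.72 for Sgk1 against 6.36, 6.387, 6.384, 6.18, 6.71 and 6.26 in controls, and 5.7, 5.81 and 6.01 for Tsc22d3 against 6.4, 6.57, 6.20, 6.33, 6.49 and 6.36. Neither gene's groups overlapped, as for 37.7% of all genes in this comparison. Sgk1 was 1.48-fold and Tsc22d3 1.46-fold lower (limma adjusted p = 0.000213 and 0.000151). Both were also lower than in resilient mice, by 0.43 and 0.42 on the log2 scale (limma adjusted p = 0.00622 and 0.0052). In the 2 susceptible and 6 control mice of the first sequencing set the differences were -0.62 and -0.53. In that set alone, susceptible minus resilient (2 mice and 1) was -0.52 for Sgk1 and -0.17 for Tsc22d3, and neither was called (limma adjusted p = 0.188 and 0.603). With the library set as a covariate no member was called in these B6 comparisons.

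The D2 controls of the vHPC were at a similar place, with 5.65 to 6.05 for Sgk1 and 5.62 to 5.77 for Tsc22d3. The log2 differences from B6 controls were -0.49 and -0.69 (limma adjusted p = 2.36e-05 and 6.06e-08). With the displacement subtracted, susceptible minus control was -0.33 for Sgk1 and -0.22 for Tsc22d3 (limma adjusted p = 0.37 and 0.382), and susceptible minus resilient was -0.36 and -0.32 (limma adjusted p = 0.106 and 0.109). In susceptible D2 mice the differences were -0.17 and -0.14 and were not called (limma adjusted p = 0.319 and 0.429).

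Susceptible B6 mice and D2 controls of the vHPC were compared with the same 6 B6 control libraries, so these values are not independent of each other. The log2 fold changes of the called members in susceptible mice and in D2 controls were -0.71 and -1.07 for Hsd11b1, -0.56 and -0.49 for Sgk1, -0.55 and -0.69 for Tsc22d3. They were -0.53 and -0.60 for Plin4, -0.15 and -0.17 for Nr3c2, and 0.54 and 0.71 for Zbtb16. The means of Nr3c2, Tsc22d3, Hsd11b1, Plin4 and Zbtb16 ran in the unbroken group order described above, which 35% of all vHPC genes had, and Hsd11b1 was the only member to do so in the mPFC. With the library set as a covariate the vHPC strain calls of Hsd11b1 and Tsc22d3 remained, and those of Nr3c2, Sgk1, Plin4 and Zbtb16 were lost (limma adjusted p = 0.534, 0.228, 0.245 and 0.48).

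Plin4 (chromosome 17, bases 56100591 to 56109803) had levels of 0.22 (mPFC), 0.68 (BNST) and 4.37 (vHPC) log2 CPM in B6 controls. Susceptible B6 mice of the vHPC read 3.79, 4.05 and 3.68 and lay below the 6 controls at 4.23 to 4.56 (37.7% of all genes did not overlap), 1.44-fold lower (limma adjusted p = 0.00972). With the displacement subtracted the log2 difference was -0.25 (limma adjusted p = 0.477). In the mPFC susceptible D2 mice read 0.94, 0.47, 0.95, 0.34, 0.79, 1.0, 0.84 and 1.2 against 0.53, 0.37, 0.29, 0.60, 0.21 and -0.13 in D2 controls. The groups overlapped and the difference of 0.51 was not called (limma adjusted p = 0.985). In B6 mice the same contrast was -0.12, and the interaction of 0.63 was not called (limma adjusted p = 0.488).

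Hif3a (chromosome 7, bases 17031507 to 17062427) was called only between the controls of the mPFC, where it was 1.64-fold higher in D2 mice (limma adjusted p = 0.00595). The D2 controls read 1.04, 1.0, 1.72, 1.134, 1.29 and 1.06 and the B6 controls 0.01, 0.71, 1.26, 0.23, 0.61 and 0.15, with 1 B6 mouse inside the D2 range. Its strain difference in the vHPC was 0.09 (95% interval -0.46 to 0.63). Pdk4 (chromosome 6, bases 5483351 to 5496309) was called in none of the 21 comparisons. Its largest mPFC difference was -0.25 between susceptible and resilient B6 mice (limma adjusted p = 0.188), and its vHPC group means stayed between 2.99 and 3.06.

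In the BNST several members varied widely between mice of 1 group. In resilient D2 mice Sgk1 read 6.89, 7.03 and 6.14, Plin4 4.38, 4.76 and 0.50, and Hif3a 5.28, 5.46 and 2.53. Tsc22d3 read 5.48, 5.77 and 3.53 and Zbtb16 5.63, 5.90 and 3.65 in the same mice. In all 5 genes the first and second mouse stood at the top and the third mouse far below. Over all 28 BNST mice, with group means removed, marker lists were compared by the mean log2 CPM of their genes. The oligodendrocyte precursor mean had a Pearson's r of 0.88 with Tsc22d3, 0.75 with Hif3a, 0.68 with Zbtb16, 0.65 with Plin4 and 0.38 with Sgk1. The oligodendrocyte mean had 0.71, 0.64, 0.74, 0.62 and 0.01 with these genes. Astrocyte markers had 0.61, 0.50, 0.67, 0.57 and -0.12, and microglial markers 0.58, 0.44, 0.35, 0.46 and 0.35. Neuronal markers had -0.16, -0.20, -0.02, -0.08 and -0.39. The part of any marker list in the spread of these genes was not tested. The Plin4 values rest on 342, 408 and 21 reads.

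Against D2 controls the log2 differences in resilient D2 mice were 1.66 ± 0.66 (SE) for Plin4, 1.07 ± 0.49 for Hif3a and 0.61 ± 0.20 for Sgk1, and -1.37 ± 0.66 for Hsd11b1. None was called (edgeR adjusted p = 0.858, 0.902, 0.858 and 0.902). They depended on which mice were set against each other. Within the first library set (2 resilient and 3 control mice) the differences were 2.85 for Plin4, 2.28 for Hif3a and 0.95 for Sgk1, and within the second (1 and 2 mice) they were -1.86, -1.68 and -0.12. Hsd11b1 read 1.11, -0.83 and -0.53 on 35, 8 and 10 reads, with within-set differences of -1.22 and -1.81.

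D2 controls of the BNST were split as well. For Plin4 they read 0.90, 0.77, 2.95, 1.79 and 3.48, for Hif3a 2.33, 2.45, 4.35, 4.07 and 4.48, for Tsc22d3 4.44, 4.03, 5.67, 5.53 and 6.04 and for Zbtb16 3.46, 3.68, 5.00, 5.02 and 5.78. The first and second mouse lay below the other 3 in all 4 genes, and those 3 carry the same prefix in their identifiers. No control D2 mouse shared a prefix with a resilient one. The D2 minus B6 control differences of 1.48 for Plin4 and 0.56 for Pdk4 were not called (edgeR adjusted p = 0.295 and 0.293).

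**Figure D5:**
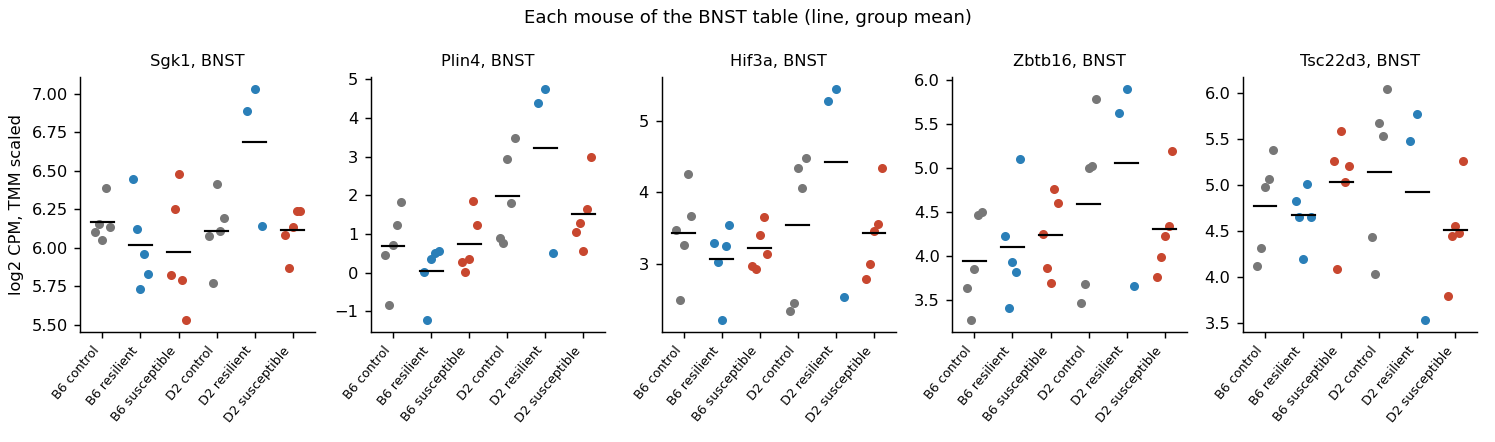
Log2 CPM (TMM scaled) of Sgk1, Plin4, Hif3a, Zbtb16 and Tsc22d3 in single mice of the BNST, by group, with one point per mouse and a line at the group mean. In resilient D2 mice 2 points lie high and 1 low for Plin4 (4.38, 4.76 and 0.50), Hif3a (5.28, 5.46 and 2.53) and Sgk1 (6.89, 7.03 and 6.14).

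Among 15 genes of the receptor complex and its coregulators, the acetyltransferase Ep300 was the only one called in susceptible against control B6 mice of the mPFC, at 0.21 (limma adjusted p = 0.0463). It was also higher than in resilient mice by 0.25 (limma adjusted p = 0.0306), as was the coactivator Ncoa3 by 0.15 (limma adjusted p = 0.0482). Of all genes, 2.22% were called against controls and 2.02% against resilient mice. The identifier prefix described for Fkbp5 bears on these comparisons too, and other settings were not examined for these genes. Between D2 and B6 controls 4 of the 15 were higher and 2 lower in the mPFC, where 27.79% of all genes were called. The chaperone Hspa8 was lower by 2.04 there and by 3.07 in the vHPC (limma adjusted p = 6.16e-20 in the mPFC). In the BNST Hspa8 ran from 7.89 to 8.29 log2 CPM in D2 controls and from 8.13 to 9.14 in B6 controls. These ranges overlapped, and edgeR did not call the difference. In vHPC mice of the susceptible B6 group 5 of the 15 were higher and 1 was lower, against 40.64% of all genes called, and the lower gene was Hspa8 at -1.50. With the displacement subtracted limma called none of the 19559 vHPC genes in susceptible against control B6 mice, and 2631 had an unadjusted p under 0.05.

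Of 4 genes of hormone entry and handling, Srd5a1, which encodes a steroid reductase, was lower in D2 than in B6 controls by 1.01 in the mPFC (limma adjusted p = 2.5e-08) and by 1.25 in the vHPC. It was not lower in the BNST, with means of 3.02 ± 0.62 log2 CPM in D2 and 2.82 ± 0.55 in B6 controls, without a call. Abcb1a, which encodes the efflux pump of the blood-brain barrier, was lower in D2 controls by 0.21 in the mPFC and 0.49 in the vHPC. H6pd, whose enzyme supplies the cofactor of the Hsd11b1 enzyme, was higher by 0.35 and 0.41. Between controls 27.79% of all mPFC genes and 59.32% of all vHPC genes were called. In the mPFC none of these 4 genes was called after defeat. In the vHPC Srd5a1 was called in resilient B6 mice (-0.44, limma adjusted p = 0.00699; 10.84% of all genes). In susceptible B6 mice Srd5a1 (-0.37, limma adjusted p = 0.0372) and Abcb1a (-0.28, limma adjusted p = 0.00642) were called, with 40.64% of all genes. With the displacement subtracted no gene was called in either comparison.

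Of 28 further genes known as glucocorticoid-induced, 26 were tested in the mPFC and 27 in each of the other regions. None was called in susceptible against control B6 mice of the mPFC, and Per1, a clock gene, was higher by 0.44 in susceptible than in resilient mice (limma adjusted p = 0.0306). The shares of all genes called there were 2.22% and 2.02%. Between the mPFC controls, where 27.79% of all genes were called, 1 was higher and 9 were lower in D2 mice, including the glutamine synthetase gene Glul at -0.53 and the gap junction gene Gjb6 at -0.44. In the vHPC 5 were higher and 15 lower in susceptible B6 mice, with a median of -0.29 over the list and -0.01 over all genes, and 3 were higher and 16 lower in D2 controls. The shares of all genes called in these comparisons were 40.64% and 59.32%, and the former was 0% with the displacement subtracted. No gene of the 3 lists was called in any BNST comparison by edgeR.

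Markers of cell types moved with several of these results, and in bulk tissue fewer cells of a type and less RNA per cell cannot be told apart. The summed level of 10 oligodendrocyte markers in the mPFC was 1760 to 3380 CPM in B6 controls, 1260 to 1970 in susceptible B6 mice and 1160 to 1690 in D2 controls. Of the 10, 9 were called lower in susceptible B6 mice, where Fkbp5 was higher, and all 10 in D2 controls, where Hsd11b1 was lower. The shares of all genes called in these comparisons were 2.22% and 27.79%. In the vHPC the sum was 3700 to 4150 CPM in B6 controls, 2680 to 4030 in resilient mice, 2130 to 2430 in susceptible mice and 1420 to 2230 in D2 controls. All 10 were called lower in susceptible B6 mice and in D2 controls, beside the lower Hsd11b1, Sgk1, Tsc22d3 and Plin4. Of all genes, 40.64% and 59.32% were called in these vHPC comparisons. The part of these markers in the members' differences was not tested.

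The summed level of 8 choroid plexus markers in the vHPC was 41 to 2150 CPM in B6 controls and 25.8 to 83.7 in susceptible B6 mice, and 3 of the 8 were called lower. Endothelial markers summed to 335 to 376 CPM in controls and 267 to 298 in susceptible mice, with 5 of 8 called lower. Cortical neuron markers summed to 789 to 828 CPM in controls and 967 to 1010 in susceptible mice, with 6 of 7 called higher, beside the higher Zbtb16. Sums of other lists did not overlap between the same groups either: microglial markers were 309 to 323 CPM in controls and 265 to 278 in susceptible mice, astrocyte markers 6260 to 6880 and 5860 to 6230, neuronal markers 4420 to 5020 and 5060 to 5300, and oligodendrocyte precursor markers 426 to 448 and 471 to 509. Striatal markers, at 196 to 207 CPM in controls and 210 to 216 in susceptible mice, did not overlap, nor did the 6 extended amygdala markers tested, at 436 to 475 and 497 to 537. Of all genes 40.64% were called in this comparison, and 37.7% had groups that did not overlap. The part of these marker lists in the results was not tested either. In the BNST the oligodendrocyte sum was 3730 to 12100 CPM in D2 controls, 3900 to 5160 in resilient and 2300 to 6800 in susceptible D2 mice, with none of the 10 called.

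Across mice, with group means removed, some pairs of members had a high correlation in 1 region and a low one in another. The correlations that follow are descriptions over 32 mPFC, 28 BNST and 28 vHPC mice, which share library sets and tissue makeup within a region. Hif3a and Zbtb16 had Pearson's r of 0.05 (mPFC), 0.88 (BNST) and 0.81 (vHPC). Plin4 and Zbtb16 had 0.03, 0.89 and 0.63. Hif3a and Plin4 were low in the mPFC, with means of 0.95 and 0.43 log2 CPM over all libraries. Plin4 was also low in the BNST, at 1.23. In the BNST Hif3a, Plin4 and Zbtb16 also varied with the oligodendrocyte markers, as given above. Whether low levels or tissue makeup had a part in these differences between regions was not tested. Sgk1 and Tsc22d3 had 0.76, 0.51 and 0.40. Nr3c1 and Hsd11b1 had 0.52, 0.54 and 0.56.

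The genes whose deviations were most like a member's, by the mean r over the 3 regions among 16042 genes, were named for each. They were Ccng1 and Arap2 for Nr3c1 (both 0.78), Filip1 and Zbtb20 for Nr3c2 (both 0.64), Cacna1i (0.78) and Tnrc18 (0.75) for Fkbp5, and Kndc1 (0.81) and Sulf2 (0.80) for Zbtb16. Slc2a1, the glucose transporter gene of the blood-brain barrier, was among the first 3 for Sgk1 (0.57), Tsc22d3 (0.70) and Plin4 (0.60). Tsc22d3 was itself among the first 3 for Sgk1 (0.56). The remaining members had Osbpl1a (0.66) for Hsd11b1, Wipi1 (0.60) for Pdk4 and Notch4 (0.62) for Hif3a.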

How the data were processed

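RNA-seq values of 10 members were taken from 3 tables covering 88 libraries. The authors aligned reads of both strains to GRCm38 with STAR and counted exon reads with HTSeq. The deposited BNST table holds whole read counts. The deposited mPFC and vHPC tables hold log2 CPM that the authors had filtered for low values, transformed with voom and then corrected by ComBat for library sets (vHPC: sequencing sets too). Which covariates ComBat was told to keep is not given in the sources used here, and the depth of these 2 tables is not known from the files.

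Symbols and exon lengths came from GENCODE M21. BNST genes that reached 1 CPM in 6 or more libraries were scaled by TMM (factors 0.6561 to 1.273) and tested with edgeR 4.0.16 (robust quasi-likelihood), and log2 CPM used a prior count of 0.5. The mPFC and vHPC were tested with limma 3.58.1 (robust empirical Bayes) in R 4.3.3. All groups of a region entered 1 fit, giving 21 comparisons. P values were two-sided, Benjamini-Hochberg adjusted over all genes and called under 0.05. They set group differences against the spread between mice. In the mPFC and vHPC this was the spread left after the authors' adjustment, where the mice came from 5 and 10 library sets. The main fits took no account of that adjustment, so these p values may be too small. On simulated data with 200 genes changed by a log2 fold change of 1, 186, 117 and 181 were recovered in the mPFC, BNST and vHPC comparisons of susceptible with control B6 mice. The simulated noise was independent between genes, without library sets or displacement, and changed BNST genes were drawn only from those of higher mean CPM. Smaller changes were not simulated, and most differences of the members were smaller, so these counts do not give the power for them. DESeq2 1.42.0 and sva 3.50.0 served alternatives, and Python 3.11.15 with NumPy 2.4.6, pandas 2.3.3 and matplotlib 3.10.9 the rest.

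The members and lists were chosen with earlier results of these data known. Every member was described, and of each further list at most 4 genes with the smallest p per comparison were named. The 3 genes most like each member had the highest mean correlation of deviations from group means. The strain position and its subtraction (position times the D2 minus B6 control difference, B6 groups only, with the same B6 controls in both steps) were chosen after the data had been seen. No 2 columns held identical values.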

Additional observations from a re-analysis of the deposited data

Results flagged for a closer look

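Of 140 sets of a member in a group of 4 to 10 mice, 4 held a mouse whose gap to its nearest neighbour was large against the range of the group, and chance alone marks about 1 set in 20. Fkbp5 in the mPFC was 2.78 log2 CPM in B6 control replicate 5, against 3.04 to 3.19 in the other 5. Nr3c2 in the mPFC was 6.42 in B6 susceptible replicate 4, against 6.17 to 6.22. Nr3c1 in the mPFC was 7.58 in D2 control replicate 4, against 7.83 to 7.90. Plin4 in the vHPC was 4.95 in B6 resilient replicate 8, against 3.80 to 4.23. No member's change in defeated mice differed between the strains past the threshold.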

How the results depend on the processing

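No paired analysis was possible because no mouse was in more than 1 group of a region and the labels name no litter or cage. Counts of members called changed by more than 1.5 times as follows. In susceptible against control B6 mice of the mPFC the count of 1 became 0 with the library set as a covariate, with the mouse identifier prefix as a covariate, with only the groups compared in the fit and with quantile normalization, and leaving out 1 mouse gave 0 to 1, the call being lost without control replicates 1 to 5 or susceptible replicates 2, 3, 5 or 6. In susceptible against resilient mPFC mice leaving out 1 mouse gave 0 to 1 (main 0). In the BNST interaction of strain and susceptibility, 1 member (Nr3c2, 0.89 and 0.91, adjusted p = 0.0194 with edgeR and 0.0131 with limma) was called without TMM factors and with limma on voom values with ComBat, against 0; the median of all genes there was 0.53 and 0.62, against -0.04. In the vHPC the library set as a covariate gave 0 members in resilient mice (main 1), 0 in susceptible mice (main 6), 0 between them (main 3) and 2 between controls (main 6; Hsd11b1 and Tsc22d3), and no library set held both control and defeated B6 mice. Sequencing set 1 alone gave 0 in resilient against control mice and 0 between susceptible and resilient mice, and sequencing set as a covariate 0 in resilient mice, where leaving out 1 mouse gave 1 to 2. Only the groups compared gave 1 between susceptible and resilient mice and 2 in the interaction (main 0), and a trend gave 1 in susceptible D2 mice (main 0). Subtracting the strain position gave 0 in all 3 B6 comparisons and turned Hsd11b1 in resilient mice from -0.30 to 0.048. Smaller shifts were from 6 to 5 in susceptible against control B6 mice of the vHPC with the sequencing set as a covariate, in sequencing set 1 alone and with only the groups compared (Nr3c2 lost), and from 4 to 5 between mPFC controls with a trend (Nr3c2, limma adjusted p = 0.0493) or to 3 with genes of low mean left out. The causes were not tested. After the subtraction limma called 0 of 19559 vHPC genes, and for the other settings the share of all genes called is not given here. The counts therefore do not show whether members lost calls more than other genes did. Of BNST group levels, 7 of 60 moved by 1 SD or more without TMM factors. Values of Hsd11b1 and Plin4 in the BNST rest on few reads.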
